A study of Homo sapiens with 24 samples.

Results

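The 10 core genes of nucleotide excision repair, ERCC1, ERCC2, ERCC3, ERCC4, ERCC5, ERCC6, XPA, XPC, DDB1 and DDB2, were followed through 24 RNA-seq libraries. They were chosen by gene symbol, as 10 of the 28307 genes in the count table, and all 10 passed the filter on low counts in both cell lines. The libraries came from 2 cancer cell lines, SUM159 of the breast and SW620 of the colon. Adherent cultures of each line were given nifuroxazide (NIF), an antibiotic known to inhibit STAT3 signalling, or the solvent DMSO for 30 h. Afterwards they were sorted by aldehyde dehydrogenase activity into ALDHbr cells, the fraction labelled as cancer stem cells, and ALDHneg cells, labelled as non-stem cells. Each of the 8 groups, SUM159 ALDHbr DMSO, SUM159 ALDHbr NIF, SUM159 ALDHneg DMSO, SUM159 ALDHneg NIF and the same 4 in SW620, held 3 libraries. The labels name no genetic change in any group. Each cancer type was represented by a single cell line, and the NIF concentrations, which the study lists by cell line in a supplementary table, were not used here.

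Nucleotide excision repair removes bulky, helix-distorting lesions such as ultraviolet photoproducts and takes part in the repair of interstrand crosslinks. In its global branch the lesion is found by XPC or by the DDB1-DDB2 complex, and in its transcription-coupled branch by the stalled RNA polymerase and ERCC6 (CSB). Both branches then open the helix with the TFIIH helicases ERCC3 (XPB) and ERCC2 (XPD), check the lesion with XPA, cut on the 5′ side with ERCC1-ERCC4 (XPF) and on the 3′ side with ERCC5 (XPG), and fill the gap.

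The libraries held between 30253187 and 43127948 counts, with a median of 36520935. Mesenchymal markers (10 genes) summed to 6466 to 8988 CPM (the gene's counts divided by the scaled library size and put on a common scale) in the SUM159 libraries and to 8.10 to 37.6 CPM in the SW620 libraries, and colon epithelial markers (10 genes) summed to 0.426 to 8.67 CPM in SUM159 and to 2286 to 2851 CPM in SW620. These sums used library sizes scaled over all 24 libraries together. ALDH1A1, which encodes the enzyme behind much of the sorted activity, followed the gate in SUM159, at 135 ± 27.7 CPM (SD, n = 3) in ALDHbr DMSO cells and 0.480 ± 0.0618 in ALDHneg DMSO cells. In SW620 the ALDHneg DMSO libraries still held 901 ± 19.3 CPM of ALDH1A1, against 1314 ± 51.3 in ALDHbr DMSO cells. ALDH1A3, the other gene used to check the sort, followed the gate in SUM159 (log2 fold change 1.60, ALDHbr against ALDHneg DMSO cells). In SW620 it went against the gate and was called lower in ALDHbr DMSO cells (-0.36). Under NIF, ALDH1A1 and ALDH1A3 were both called lower in SW620. Their log2 fold changes spanned -1.47 to -0.46 in ALDHbr and -1.89 to -0.71 in ALDHneg cells. In SUM159 neither was called, with spans of -1.26 to 0.38 in ALDHbr and -2.07 to -0.14 in ALDHneg cells. The library SW620 ALDHbr DMSO replicate 2, stood apart. Without it the genes called between the SW620 gates went from 1577 to 5487, so the calls among the 10 genes that changed without it are given beside each comparison.

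The genes lie on 8 chromosomes of GRCh38.p14. ERCC1 (chr19:45407334-45451547, minus strand) and ERCC2 (chr19:45349837-45370573, minus strand) lie 36760 bases apart, and DDB1 (chr11:61299451-61333105, minus strand) and DDB2 (chr11:47214454-47239217, plus strand) share chromosome 11. ERCC3 lies at chr2:127257290-127294144 (minus strand), ERCC4 at chr16:13920154-13952348 (plus), ERCC5 at chr13:102846032-102875995 (plus), ERCC6 at chr10:49434881-49539538 (minus), XPA at chr9:97654398-97697340 (minus) and XPC at chr3:14145147-14178601 (minus).

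The sequence just upstream of ERCC2, which fell under NIF in SW620, and of DDB2, which fell under NIF in SUM159, is shown because these were the members of the 10 whose windows held the CCAAT box, the letters bound by the factor NF-Y. The windows are the 250 bases before the RefSeq start site (GRCh38.p14), written 5′ to 3′ on the gene's strand, and capitals mark CCAAT or its reverse complement. The ERCC2 window is chr19:45370574-45370823 (minus strand) and the DDB2 window is chr11:47214204-47214453 (plus strand).
ERCC2: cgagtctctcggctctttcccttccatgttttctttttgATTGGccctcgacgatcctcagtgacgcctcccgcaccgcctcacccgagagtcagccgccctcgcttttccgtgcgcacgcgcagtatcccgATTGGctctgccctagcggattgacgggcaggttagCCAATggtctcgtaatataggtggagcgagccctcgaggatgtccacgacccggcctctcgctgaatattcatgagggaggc
DDB2: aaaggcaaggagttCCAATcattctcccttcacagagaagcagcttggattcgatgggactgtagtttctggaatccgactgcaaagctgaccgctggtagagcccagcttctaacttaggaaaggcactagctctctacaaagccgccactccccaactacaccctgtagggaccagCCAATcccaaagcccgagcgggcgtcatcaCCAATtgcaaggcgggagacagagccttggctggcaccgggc
Each window held 3 matches, starting 211, 118 and 82 bases before the start site in ERCC2 and 236, 72 and 42 bases before it in DDB2. Among the 27305 RefSeq promoter windows of this length, 33% held at least 1 match on either strand and 3.09% held 3 or more. The letters TTCNNNGAA, the general STAT motif, were in 0 of the 10 windows and in 6.78% of all windows, which says only that these letters are not in these stretches. The letters TGACNNNGC, the core of the antioxidant response element, occurred 2 times in the XPC window, 214 and 86 bases before the start, and in 11% of all windows. GENCODE's canonical transcript starts at the RefSeq start site in 8 of the 10 genes, but not within the windows of ERCC1 and DDB2, so for those genes the window may lie away from the start used most.

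Some of the 10 count rows could share reads with other genes. The ERCC5 row held 31 to 58 counts per library, although 91.7% of the exon bases of its canonical transcript also belong to the read-through gene BIVM-ERCC5 on the same strand, whose row was at 0 in all 24 libraries. ERCC5 values are therefore uncertain. POLR1G, which encodes an RNA polymerase I subunit, overlaps 47.1% of the ERCC1 canonical transcript from the opposite strand, KLC3 overlaps 13% of ERCC2, and XPC-AS1 overlaps 30% of XPC. The library kit keeps strand, but whether the counting used it is not given in the sources used here.

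Compared per kilobase of canonical transcript, the DDB1 row had the highest level in all 8 groups and the ERCC5 row the lowest. The ERCC5 rank is uncertain, since 91.7% of its exon bases are shared with BIVM-ERCC5 on the same strand. How shared reads were counted is not given, so the row may not hold all reads of the gene. In SUM159 ALDHbr DMSO cells the levels were 93.4 ± 1.27 CPM per kilobase for DDB1, 29.7 ± 2.04 for ERCC1, 28.4 ± 0.733 for ERCC2, 18.9 ± 0.553 for ERCC3, 11.9 ± 1.12 for XPC, 7.32 ± 0.617 for XPA, 6.80 ± 0.123 for DDB2, 4.26 ± 0.474 for ERCC6, 2.76 ± 0.183 for ERCC4 and 0.280 ± 0.0240 for ERCC5 (SD, n = 3). Neighbours ERCC1 and ERCC2, and XPA and DDB2, lay within their spreads in that group. In SW620 ALDHbr DMSO cells the order was DDB1, ERCC3, ERCC1, ERCC2, DDB2, XPA, XPC, ERCC6, ERCC4 and ERCC5, with ERCC3 at 20.3 ± 0.434 and ERCC1 at 19.2 ± 1.36 CPM per kilobase. ERCC1 stood second in SW620 under NIF, at 30.9 CPM per kilobase in ALDHbr and 32.4 in ALDHneg cells. XPA, which verifies the lesion, and the nuclease ERCC4 thus had levels far below that of DDB1, whose product also serves as the adaptor of many CUL4 ubiquitin ligases.

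**Figure D1:**
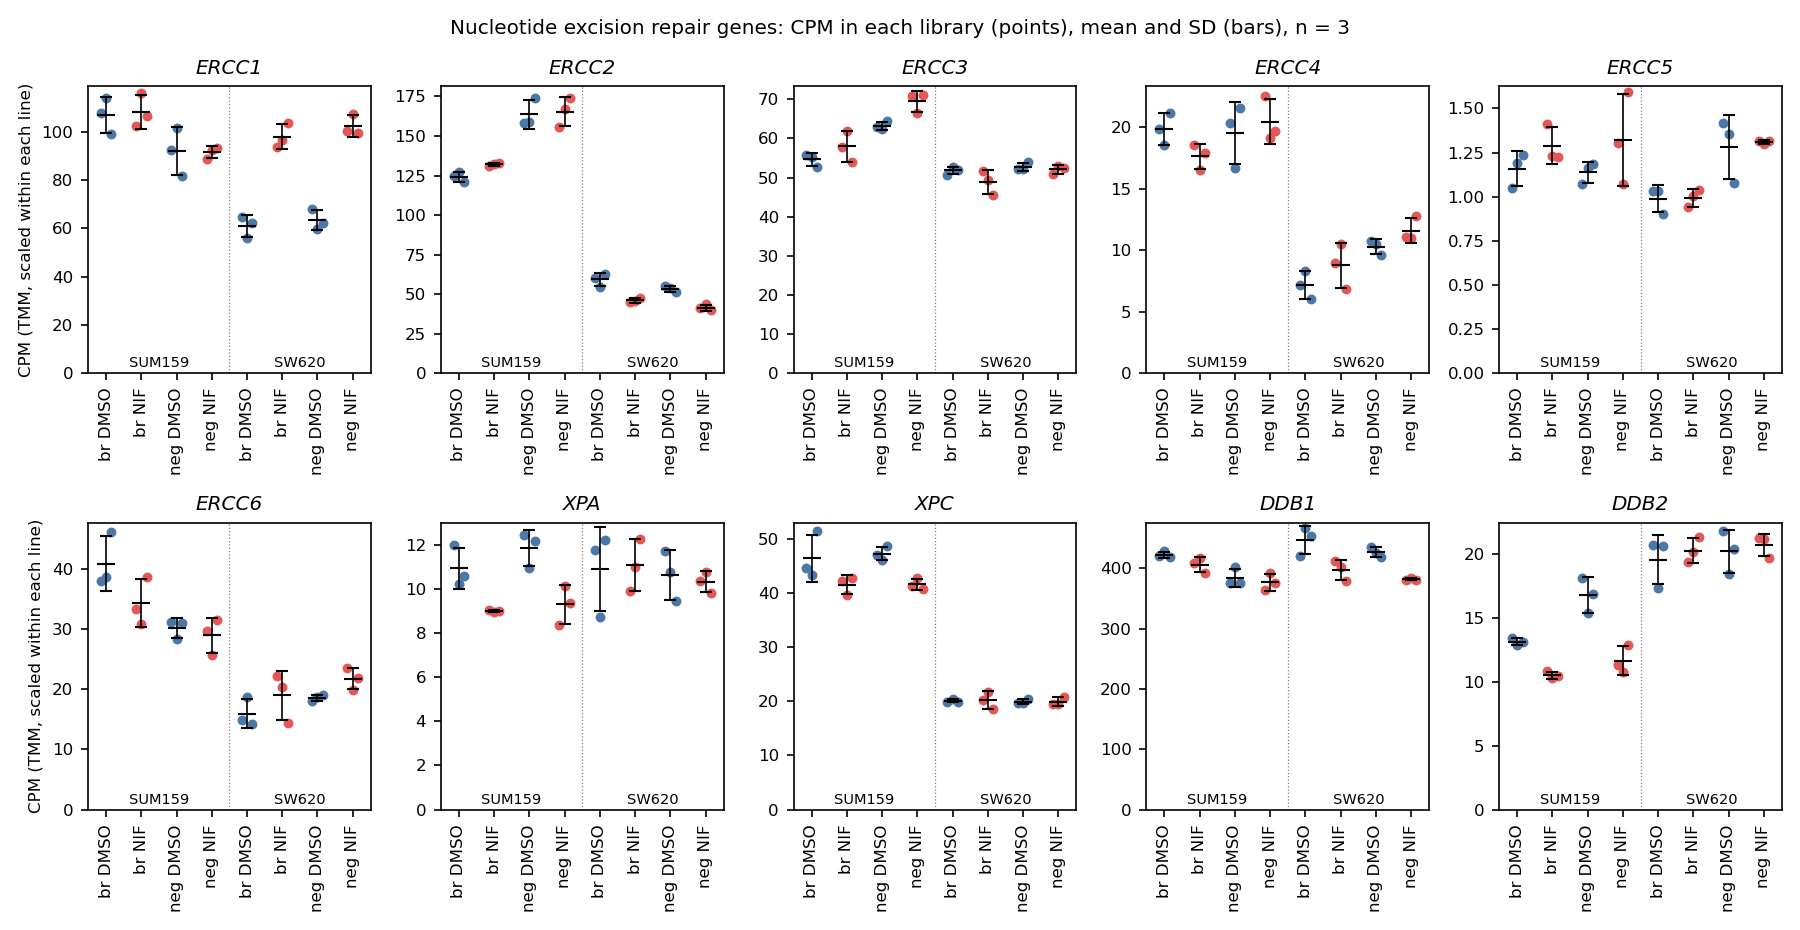
CPM of each of the 10 genes (vertical axes, from 0) in the 24 libraries, with 8 groups along each horizontal axis (ALDHbr and ALDHneg shortened to br and neg, DMSO in blue and NIF in red). Points are libraries and bars the mean and SD of 3. CPM was scaled within each line, so heights do not compare the lines. The SW620 NIF points of ERCC1 lie above the SW620 DMSO points in both gates, and the SUM159 NIF points of DDB2 lie below those of DMSO.

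The comparison of NIF with DMSO asks how the drug changed the transcripts of these genes in each line and gate. In SW620, NIF raised ERCC1 and lowered ERCC2 in both gates, and DDB1 was called lower in both, close to the threshold. In SUM159, DDB2 fell in ALDHneg cells, and XPA and XPC had lower values in both gates. Pairing the SUM159 libraries by replicate number added calls, all lower under NIF. These were DDB2 and ERCC6 in ALDHbr cells, and XPA and XPC in ALDHneg cells. The tests below are edgeR quasi-likelihood tests fitted within each cell line on all genes tested, with p-values adjusted by Benjamini-Hochberg and called at 0.05. In these bulk libraries a smaller share of cells with a transcript and less of it per cell cannot be told apart.

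ERCC1, the non-catalytic partner that carries the XPF nuclease to DNA, stood at 64.9, 56.1 and 62.1 CPM in the 3 SW620 ALDHbr DMSO libraries and at 93.5, 96.8 and 103.8 CPM under NIF. In SW620 ALDHneg cells it was at 67.9, 59.8 and 62.2 CPM under DMSO and at 100.4, 107.5 and 99.4 CPM under NIF. Every NIF library of SW620 was above every DMSO library. The rise was 1.61-fold in ALDHbr cells (log2 fold change 0.68, SE 0.07, adjusted p = 2.58e-06) and 1.62-fold in ALDHneg cells (log2 fold change 0.69, SE 0.07, adjusted p = 1.73e-06). In SUM159, ERCC1 libraries overlapped between treatments, at 107.9, 113.9 and 99.3 CPM in ALDHbr DMSO against 102.4, 116.0 and 106.5 under NIF, and at 92.6, 101.6 and 81.6 in ALDHneg DMSO against 88.8, 92.7 and 93.5 under NIF. The SUM159 log2 fold changes were 0.02 in ALDHbr cells (95% interval -0.15 to 0.18) and near 0 in ALDHneg cells (95% interval -0.17 to 0.16).

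POLR1G, the opposite-strand neighbour of ERCC1, moved the other way in SW620. Its mean went from 133 ± 6.54 to 111 ± 6.63 CPM in ALDHbr cells and from 137 ± 3.61 to 107 ± 4.18 in ALDHneg cells, log2 fold changes of -0.25 (adjusted p = 0.0029) and -0.35 (adjusted p = 0.000207). Reads of POLR1G counted in the ERCC1 row, and the reverse, were not separated here.

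ERCC2, the 5′ to 3′ helicase of TFIIH, had 60.5, 54.7 and 62.6 CPM in SW620 ALDHbr DMSO libraries and 44.8, 45.8 and 47.3 CPM under NIF. In ALDHneg cells the values were 55.1, 53.6 and 51.0 CPM under DMSO and 41.0, 43.6 and 39.8 CPM under NIF. The treatments did not overlap in either gate, and ERCC2 fell by 0.37 on the log2 scale in ALDHbr (SE 0.06, adjusted p = 0.000297) and by 0.36 in ALDHneg cells (SE 0.06, adjusted p = 0.000298). In SUM159 the ERCC2 means were 124 ± 3.22 and 132 ± 1.07 CPM in ALDHbr cells and 164 ± 8.95 and 165 ± 9.38 in ALDHneg cells, DMSO first, and neither difference passed the test. KLC3, whose exons overlap ERCC2 on the opposite strand, rose in SW620 by 1.42 in ALDHbr and 1.1 in ALDHneg cells on the log2 scale, at 4 to 27 counts per SW620 library. ERCC3, the other TFIIH helicase, passed in none of the 4 comparisons, with log2 fold changes from -0.08 in SW620 ALDHbr to 0.14 in SUM159 ALDHneg cells.

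DDB1, the adaptor that joins DDB2 to the CUL4 ubiquitin ligase, was at 421, 467 and 454 CPM in SW620 ALDHbr DMSO libraries and at 412, 402 and 379.9 under NIF. In SW620 ALDHneg cells it was at 436, 426 and 419.7 CPM under DMSO and at 381, 384 and 381 under NIF. It fell by 0.17 (SE 0.05, adjusted p = 0.0143) and by 0.16 (SE 0.05, adjusted p = 0.0165) on the log2 scale. Both calls were close to the threshold, and the adjusted p passed 0.05 on leaving out ALDHbr NIF replicate 3 (0.0575) or ALDHbr DMSO replicate 2 (0.0549), and on leaving out ALDHneg NIF replicate 1 (0.0526) or 3 (0.0535) or ALDHneg DMSO replicate 1 (0.0883) or 2 (0.0633). In ALDHbr cells it was also 0.105 when only the groups compared entered the fit.

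DDB2, the subunit that binds ultraviolet photoproducts, had 18.1, 15.4 and 16.8 CPM in SUM159 ALDHneg DMSO libraries and 11.3, 10.8 and 12.9 CPM under NIF. In SUM159 ALDHbr cells it had 13.4, 12.9 and 13.1 CPM under DMSO and 10.8, 10.3 and 10.4 CPM under NIF. The NIF libraries lay below the DMSO libraries in both gates. The fall of 0.53 on the log2 scale in the ALDHneg fraction passed the test (SE 0.09, adjusted p = 0.00502), and in ALDHbr cells the log2 fold change of -0.32 (SE 0.09, adjusted p = 0.0738) did not. With the replicate number as a block, which pairs the SUM159 libraries, the ALDHbr value passed (-0.32, adjusted p = 0.0132), as it did by DESeq2 (adjusted p = 0.0417). In SW620, DDB2 libraries overlapped between treatments, at means of 19.6 ± 1.93 and 20.3 ± 0.982 CPM in ALDHbr cells and 20.2 ± 1.67 and 20.7 ± 0.887 in ALDHneg cells.

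XPC, the lesion sensor of the global branch, and XPA had similar patterns in SUM159. XPC stood at 44.6, 43.3 and 51.3 CPM in ALDHbr DMSO and 42.2, 39.6 and 42.8 under NIF, and at 47.1, 46.1 and 48.6 in ALDHneg DMSO and 41.3, 42.8 and 40.8 under NIF. XPA stood at 12.0, 10.2 and 10.6 CPM in ALDHbr DMSO and 9.06, 8.96 and 8.98 under NIF, and at 12.4, 10.9 and 12.2 in ALDHneg DMSO and 8.38, 10.1 and 9.38 under NIF. For both genes all NIF libraries of SUM159 lay below all DMSO libraries of the same gate, but without the block none of the 4 differences passed the test. The log2 fold changes were -0.16 (SE 0.07, adjusted p = 0.251) and -0.18 (SE 0.07, adjusted p = 0.182) for XPC and -0.28 (SE 0.10, adjusted p = 0.159) and -0.35 (SE 0.10, adjusted p = 0.0704) for XPA, ALDHbr first. With the replicate block the ALDHneg values passed for XPA (-0.36, adjusted p = 0.0167) and XPC (-0.18, adjusted p = 0.045), and XPA also passed there by DESeq2 (adjusted p = 0.0296). In SW620, XPC means ranged from 19.9 to 20.2 CPM over the 4 groups and XPA means from 10.3 to 11.1 CPM, with overlapping libraries.

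ERCC6, the ATPase that starts the transcription-coupled branch, had means of 40.9 ± 4.50 and 34.3 ± 4.01 CPM in SUM159 ALDHbr cells, DMSO first (log2 fold change -0.25, SE 0.10, adjusted p = 0.209). With the replicate block this value passed (-0.25, adjusted p = 0.00981). In SW620 it had 18.1, 18.7 and 19.0 CPM in ALDHneg DMSO libraries and 23.5, 19.9 and 21.9 CPM under NIF, groups that did not overlap, with a log2 fold change of 0.23 (SE 0.14, adjusted p = 0.193) that passed when only the groups compared entered the fit (adjusted p = 0.0029). ERCC4, the nuclease that ERCC1 carries, passed in none of the 4 comparisons, with means of 7.16 ± 1.16 to 11.6 ± 0.992 CPM in SW620 and 17.7 ± 1.03 to 20.5 ± 1.82 CPM in SUM159. Its SW620 log2 fold changes had the same sign as those of ERCC1, at 0.30 in ALDHbr (adjusted p = 0.116) and 0.17 in ALDHneg cells (adjusted p = 0.331). Whether the responses of these partners differed was not tested. Without SW620 ALDHbr NIF replicate 3 or ALDHbr DMSO replicate 2, the ALDHbr values of ERCC4 (adjusted p = 0.0142 and 0.0228) and ERCC6 (adjusted p = 0.0062 and 0.0196) passed. ERCC5 passed in none, at 31 to 58 counts.

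Counted over the 10 genes, NIF changed 3 in SW620 ALDHbr cells (1 higher, 2 lower), where 43.3% of the 13953 genes tested passed, and 3 in SW620 ALDHneg cells (1 higher, 2 lower), where 45.1% passed. In SUM159 it changed 0 of 10 in ALDHbr cells, where 3.16% of 14953 genes passed, and 1 of 10 in ALDHneg cells, where 3.3% passed. In edgeR 4 of the 10 had an unadjusted p under 0.05 in each SUM159 gate, where 16.7% of all genes did in ALDHbr and 16.8% in ALDHneg cells. DESeq2 called 1 of the 10 in ALDHbr cells, where it called 5.85% of all genes, and 2 in ALDHneg cells, where it called 5.91%. With the replicate block the SUM159 counts rose to 2 of 10, among 13.3% of all genes, and to 3 of 10, among 13.2%. With only 10 genes, none of these counts was tested against the share over all genes. The summed level of the mesenchymal markers in SW620, low as it was, did not overlap between treatments. Scaled within SW620, it was between 7.63 and 9.46 CPM under DMSO and between 22.3 and 24.8 CPM under NIF in ALDHbr cells, and between 15.7 and 16.8 CPM and between 33.0 and 35.2 CPM in ALDHneg cells. Of these 10 markers 2 to 5 were at 0 counts in every library of a group, and their part in the results was not tested. The median log2 fold change of the 10 genes was -0.11 in SUM159 ALDHbr, -0.02 in SUM159 ALDHneg, 0.01 in SW620 ALDHbr and 0.01 in SW620 ALDHneg cells, against medians of all tested genes within 0.01 of 0.

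**Figure D2:**
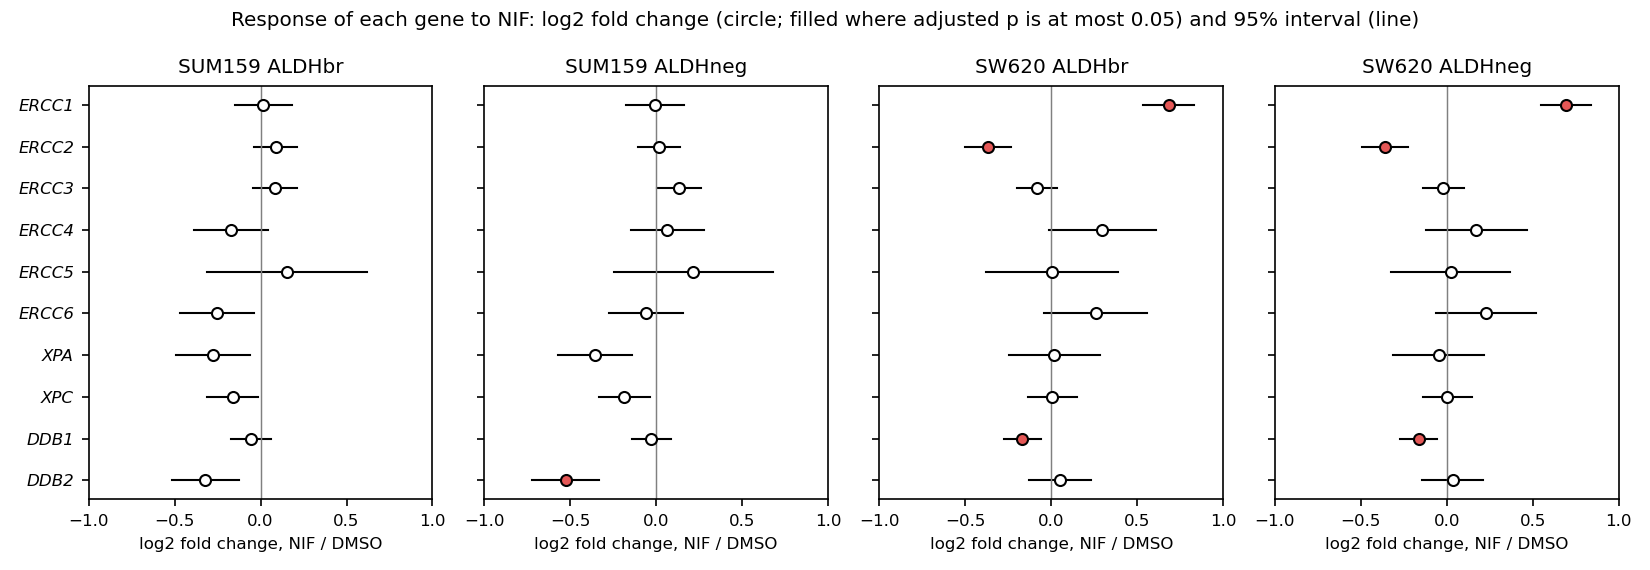
Log2 fold change of NIF against DMSO (horizontal axes) for the 10 genes (rows) in SUM159 ALDHbr, SUM159 ALDHneg, SW620 ALDHbr and SW620 ALDHneg cells. Circles are estimates, filled where the adjusted p was at most 0.05, and lines are 95% intervals. The ERCC1 circles are at 0.68 and 0.69 in SW620 and near 0 in SUM159.

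Whether NIF acted differently in stem-like and other cells was tested as the NIF effect in ALDHbr minus that in ALDHneg cells. None of the 10 genes passed in either line by edgeR or DESeq2, and 0 of 10 had an unadjusted p under 0.05. Among all genes 0% passed in SUM159 and 0.00717% in SW620. The differences ranged from -0.24 for ERCC4 to 0.20 for DDB2 on the log2 scale in SUM159 and from -0.06 to 0.12 in SW620. For ERCC1 in SW620 the 95% interval of the difference ran from -0.22 to 0.20. Cells were sorted after treatment, and whether NIF changed which cells fell in each gate was not tested in these libraries. The study reported a smaller ALDHbr fraction under NIF in its drug screen, which used a longer treatment.

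Whether NIF acted differently in the 2 lines was tested in a fit of all 24 libraries. In ALDHbr cells 4 of the 10 genes differed, where 23.1% of the 16271 genes tested did. The NIF effect was higher in SW620 than in SUM159 by 0.66 for ERCC1 (SE 0.11, adjusted p = 8.99e-05), by 0.37 for DDB2 (SE 0.12, adjusted p = 0.0294) and by 0.51 for ERCC6 (SE 0.18, adjusted p = 0.0439), and lower for ERCC2 at -0.46 (SE 0.08, adjusted p = 0.000269). In ALDHneg cells 3 of the 10 differed, where 22.4% of all genes did, ERCC1 at 0.71 (SE 0.11, adjusted p = 3.77e-05), DDB2 at 0.57 (SE 0.12, adjusted p = 0.00103) and ERCC2 at -0.37 (SE 0.08, adjusted p = 0.00196). The ERCC6 call was lost without any of 7 of the 12 single ALDHbr libraries (adjusted p up to 0.169) and under library-size scaling (0.0854). The DDB2 call in ALDHbr cells was lost without SW620 ALDHbr NIF replicate 3 (0.0509), SUM159 ALDHbr DMSO replicate 1 (0.0512) or SW620 ALDHbr DMSO replicate 2 (0.0733). ERCC4 in ALDHbr cells, at 0.47 (adjusted p = 0.0676), passed by DESeq2 (0.48, adjusted p = 0.039) and without SW620 ALDHbr NIF replicate 3 (0.63, adjusted p = 0.0115) or SW620 ALDHbr DMSO replicate 2 (0.58, adjusted p = 0.0182). The study lists NIF concentrations by cell line in a supplementary table not used here, so dose and line cannot be told apart in these values.

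The comparison of ALDHbr with ALDHneg DMSO cells asks how the genes differ with the stem-like fraction before any drug. In SUM159, 4 of the 10 differed, where 23% of all genes did. ERCC2 was lower in ALDHbr cells, at 125, 127 and 121 CPM against 158, 159 and 174 CPM in ALDHneg cells (log2 fold change -0.40, SE 0.06, adjusted p = 0.000128). DDB2 (-0.35, SE 0.09, adjusted p = 0.0103) and ERCC3 (-0.21, SE 0.06, adjusted p = 0.02) were lower as well. ERCC6 was higher, at 37.9, 38.7 and 46.1 CPM against 31.2, 28.3 and 31.0 CPM (0.44, SE 0.10, adjusted p = 0.00543). Libraries of 5 of the 10 genes, these 4 among them, did not overlap between the gates. The share of such genes over all genes was not counted, and this rests on the same values as the tests. Of the 10 mesenchymal markers, 8 were also lower in ALDHbr cells and 0 higher. Their median was -0.61 on the log2 scale, their summed levels, scaled within SUM159, were 6901 to 7989 CPM against 8428 to 9520 CPM, and none was at 0 counts. Of 26 p53 targets, 12 were higher and 1 lower, where 10.7% of all genes were higher and 12.3% lower. The part of either list in the gate differences was not tested. ERCC1 was at 107 ± 7.36 CPM in ALDHbr and 91.9 ± 9.99 in ALDHneg cells, and this log2 fold change of 0.22 (adjusted p = 0.0571) passed with the replicate block (adjusted p = 0.00301) and by DESeq2 (adjusted p = 0.0349), and DDB1 at 0.14 (adjusted p = 0.0833) also passed with it (adjusted p = 0.0118) and by DESeq2 (adjusted p = 0.023). The DDB2 call was lost without ALDHneg DMSO replicate 1 (0.0544), and the ERCC3 call without ALDHbr DMSO replicate 3 (0.0874) or ALDHneg DMSO replicate 3 (0.0565).

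In SW620, 1 of the 10 differed between the gates, where 11.3% of all genes did. ERCC4 was at 7.17, 8.33 and 6.00 CPM in ALDHbr DMSO libraries and at 10.8, 10.5 and 9.60 CPM in ALDHneg DMSO libraries (log2 fold change -0.53, SE 0.14, adjusted p = 0.032). The groups did not overlap, but the call was lost without ALDHbr DMSO replicate 1 (0.0961) or 3 (0.138) or without ALDHneg DMSO replicate 1 (0.102), 2 (0.0985) or 3 (0.0637). Without ALDHbr DMSO replicate 2, 3 of the 10 genes were called, where 38.8% of all genes were. ERCC2 then passed as higher in ALDHbr cells (0.15 with all libraries, adjusted p = 0.11, and 0.19 without that library, adjusted p = 0.015) and ERCC6 as lower (-0.23, adjusted p = 0.268, and -0.37, adjusted p = 0.0383).

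Between the lines under DMSO, 7 of the 10 genes differed in ALDHbr cells, where 81.3% of all genes did, and 7 in ALDHneg cells, where 81.2% did. In both gates ERCC1, ERCC2, ERCC4, ERCC6 and XPC were lower in SW620 than in SUM159, and DDB1 and DDB2 were higher. XPC was lower by about the same amount in both gates, at log2 differences of -1.03 (SE 0.07, adjusted p = 8.58e-13) and -1.07 (SE 0.07, adjusted p = 3.89e-13), ALDHbr first. ERCC2 differed by -0.89 (SE 0.06, adjusted p = 9.55e-13) and -1.44 (SE 0.06, adjusted p = 6.04e-17), ERCC4 by -1.29 and -0.75, ERCC6 by -1.18 and -0.52, and ERCC1 by -0.63 and -0.36. DDB2 was higher by 0.75 and 0.45 and DDB1 by 0.26 and 0.33. Library-size scaling moved the median of all genes by -0.15 in the ALDHbr and -0.17 in the ALDHneg comparison, and the 7 genes kept their directions under it. ERCC3 in ALDHneg cells was called lower in SW620 under that scaling (-0.25, adjusted p = 0.000593) and with at least 10 counts required in every library (-0.14, adjusted p = 0.0195). XPA in ALDHbr cells, at 0.18 (adjusted p = 0.152), passed as higher in SW620 without SW620 ALDHbr DMSO replicate 2 (0.31, adjusted p = 0.0117). Cell line and tissue of origin cannot be told apart with 1 line of each.

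**Figure D3:**
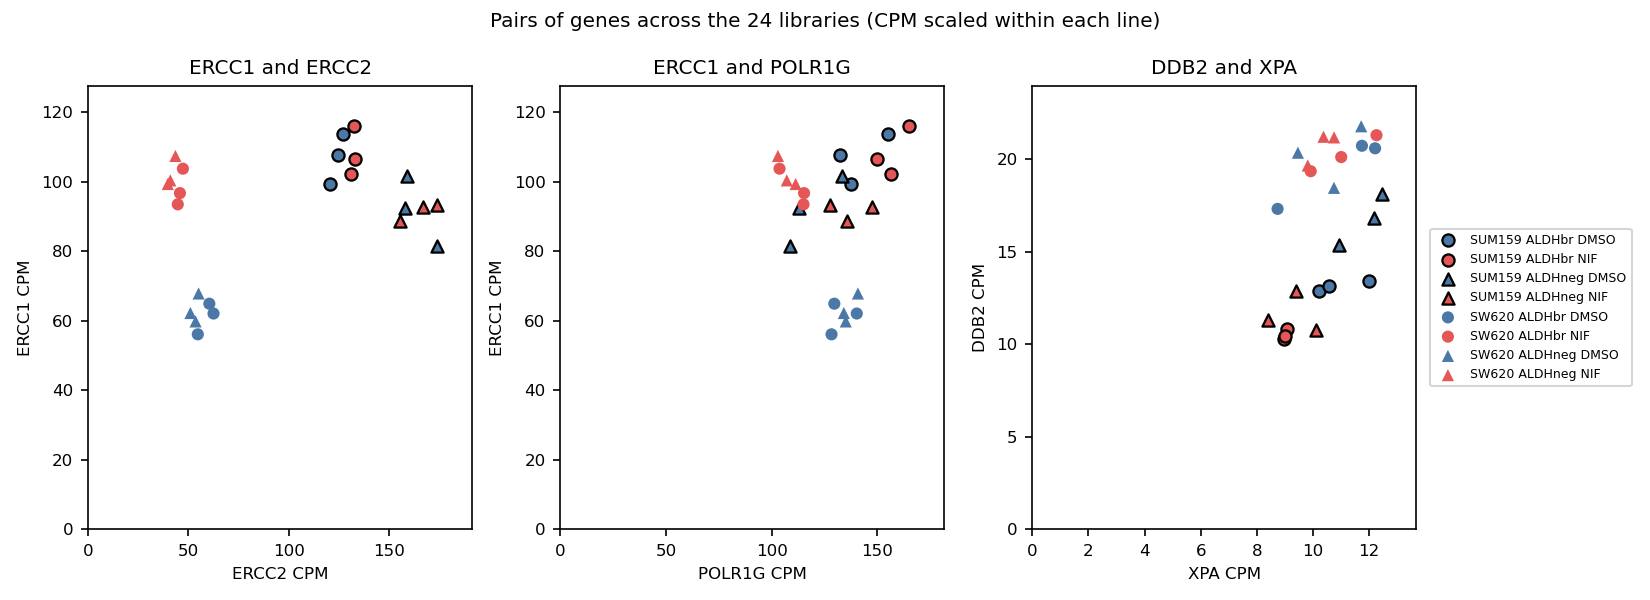
CPM of ERCC1 against ERCC2, ERCC1 against POLR1G, and DDB2 against XPA, all axes from 0, in the 24 libraries. Circles are ALDHbr and triangles ALDHneg, blue DMSO and red NIF, outlined SUM159 and unlined SW620. CPM was scaled within each line, so positions do not compare the lines. In the SW620 points, NIF libraries sit at higher ERCC1 and lower ERCC2 and POLR1G than DMSO libraries.

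Over the 24 libraries, with log2 CPM centred within each line, ERCC1 and ERCC2 had a Pearson r of -0.78 and XPA and DDB2 an r of 0.77. These are descriptions of libraries that share groups, not tests. The genes of mean level of at least 5 CPM most like ERCC1 on this measure, among 9180 compared, were SLC27A4 (r = 0.973), SH3BGRL3 (r = 0.957) and MAP7D1 (r = 0.955). For DDB2 they were MIF4GD (r = 0.837), NAGLU (r = 0.837) and BAIAP3 (r = 0.836), and for XPC they were DPY19L4 (r = 0.747), NIPSNAP2 (r = 0.733) and SLC1A1 (r = 0.723).

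The other genes of the pathway, 43 in 4 lists, were counted beside the 10. In SW620 ALDHbr cells 7 of the 42 tested rose and 15 fell, and in SW620 ALDHneg cells 8 rose and 15 fell, where 43.3% and 45.1% of all genes passed. In SUM159 0 rose and 1 fell of 43 in each gate, where 3.16% and 3.3% of all genes passed, and with the replicate block 3 rose and 2 fell in each, where 13.3% and 13.2% passed. The gene that fell without the block was CUL4B. It encodes a scaffold of the ubiquitin ligase that DDB1 and DDB2 join, and had log2 fold changes of -0.55 (SE 0.06, adjusted p = 5.59e-05) in ALDHbr and -0.59 (SE 0.06, adjusted p = 5.87e-05) in ALDHneg cells.

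The genes of the late steps, single-strand binding, clamp loading, gap synthesis and ligation, fell more often than they rose in SW620. Of 22, 2 rose and 12 fell in each gate, where 21.9% of all genes fell in ALDHbr and 22.7% in ALDHneg cells, and the list medians were -0.27 and -0.24 against all-gene medians of -0.01 in both. LIG1, a ligase that seals the gap, fell by 0.63 (SE 0.05, adjusted p = 6.16e-07) and by 0.61 (SE 0.05, adjusted p = 6.63e-07) on the log2 scale. POLE2, a subunit of DNA polymerase epsilon, fell by 0.49 in ALDHbr cells (SE 0.11, adjusted p = 0.00229), and RPA2, a subunit of the single-strand binding protein, fell by 0.42 in ALDHneg cells (SE 0.07, adjusted p = 0.000198). POLD4, a small subunit of DNA polymerase delta, rose by 1.19 (SE 0.10, adjusted p = 3.52e-07) and 1.25 (SE 0.10, adjusted p = 1.86e-07). Many of these genes also serve DNA replication, and whether the cell cycle moved with them was not tested.

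Of the 8 TFIIH genes listed beside ERCC2 and ERCC3, 7 were tested in SW620, and 2 rose in ALDHbr and 4 in ALDHneg cells with 0 falling. Over all genes 21.4% rose and 21.9% fell in ALDHbr cells, and 22.3% rose and 22.7% fell in ALDHneg cells, so these small lists are given as counts only. Of the 7 partners of the lesion sensors, 2 rose and 1 fell in SW620 ALDHbr cells and 1 rose and 1 fell in ALDHneg cells. Of the 6 other transcription-coupled repair genes, 1 rose and 2 fell in each gate, and the riser was TCEA1, the elongation factor that helps stalled polymerase to restart, at 0.36 (SE 0.05, adjusted p = 7.54e-05) and 0.42 (SE 0.05, adjusted p = 1.9e-05).

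DDB2 and XPC are known target genes of p53, so the other p53 targets were counted beside them. Of 26 such genes, 0 rose and 1 fell in SUM159 ALDHbr cells, where 3.16% of all genes passed. In SUM159 ALDHneg cells, where DDB2 fell, 0 of the 26 were called by edgeR against 3.3% of all genes, 4 had an unadjusted p under 0.05 against 16.8%, and DESeq2 called 1, higher, against 5.91%. With the replicate block 3 rose and 2 fell in ALDHbr cells, and 3 rose and 1 fell in ALDHneg cells, where 13.3% and 13.2% of all genes passed. The ALDHbr count was 0 without any of 5 of the 6 libraries compared, and 2 without DMSO replicate 2. In SW620, where neither DDB2 nor XPC was called, 11 rose and 5 fell of the 24 tested in ALDHbr cells and 10 rose and 5 fell in ALDHneg cells, where 43.3% and 45.1% of all genes passed.

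**Figure D4:**
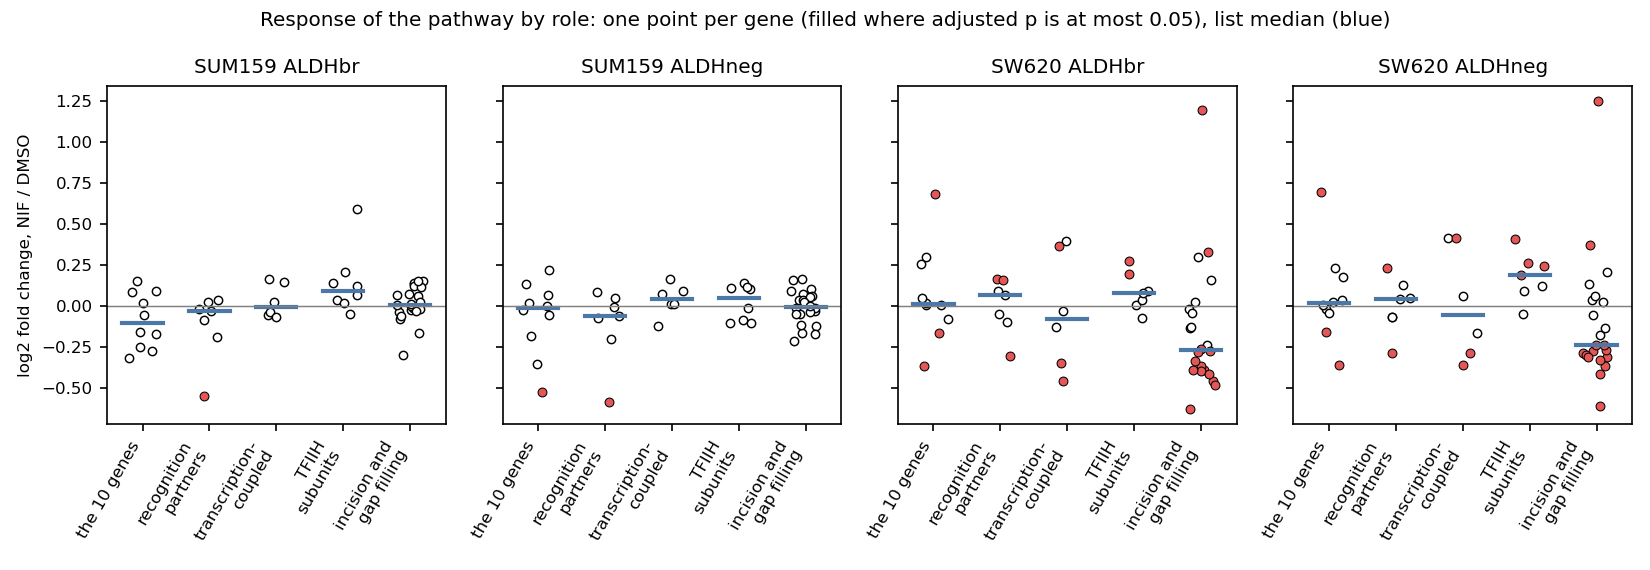
Log2 fold change of NIF against DMSO (vertical axis, shared) for the 10 genes and 4 lists of other pathway genes, in SUM159 ALDHbr, SUM159 ALDHneg, SW620 ALDHbr and SW620 ALDHneg cells. Points are genes, filled where the adjusted p was at most 0.05, and blue lines are list medians, which for incision and gap filling lie at -0.27 and -0.24 in SW620.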

How the data were processed

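Total RNA of 24 libraries (Illumina Stranded Total RNA Prep) was sequenced. Per the submitters' processing notes, reads were checked with FastQC and aligned with STAR to GRCh38. The counting tool, annotation and strand setting are not given in the sources used here. The table the authors deposited holds unnormalized read counts for 28307 genes, 1 column per library, and 4579 genes had no count.

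Counts were tested with edgeR (version 4.0.16) by quasi-likelihood after filterByExpr and TMM scaling, within each line (12 libraries, 4 groups), or over 24 libraries (8 groups) between lines, with Benjamini-Hochberg adjustment over all genes tested and a threshold of 0.05. SE is the log2 fold change divided by the square root of F, and 95% intervals use the fit's degrees of freedom. CPM used TMM library sizes and log2 CPM a prior count of 2. R 4.3.3, DESeq2 1.42.0 (an alternative test), Python 3.11.15, pandas 2.3.3 and matplotlib 3.10.9 were used. The fit was tested on simulated data.

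Replicate numbers come from the labels. In SUM159 all 18 same-numbered pairs of libraries deviated together from their group means (r from 0.262 to 0.683), so the numbers were taken to pair samples, and in SW620 4 of 18 pairs did at r over 0.1 (r from -0.663 to 0.518). Replicates of a group differed by more than sampling noise in all 24 pairs (chi-square per gene from 1.97 to 46.1). The study's methods describe 3 independent experiments for each line, and the labels do not say how the replicate numbers relate to them. The p-values measure the spread between these samples.

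The members and gene lists were chosen with earlier results of these data known. Named genes were all 10 members in each comparison, and in each NIF comparison the 2 highest and 2 lowest called genes of the 4 other pathway lists. Also named were the 3 genes most like ERCC1, XPC and DDB2, the genes overlapping the members, and ALDH1A1 and ALDH1A3 as a check of the sort. Overlaps with exons were taken from GENCODE v44 lifted to GRCh37, and coordinates and upstream sequences from RefSeq on GRCh38.p14, with all 10 genes matched.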

Additional observations from a re-analysis of the deposited data

Results flagged for a closer look

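The response to NIF differed between the SW620 and SUM159 lines, by a test of the difference itself in the edgeR fit of all 24 libraries, for 4 of the 10 genes in ALDHbr cells and 3 in ALDHneg cells. In ALDHbr cells the log2 difference, SW620 minus SUM159, was 0.66 for ERCC1, -0.46 for ERCC2, 0.51 for ERCC6 and 0.37 for DDB2. In ALDHneg cells it was 0.71 for ERCC1, -0.37 for ERCC2 and 0.57 for DDB2. ERCC1 and ERCC2 passed in all 12 fits that each left out 1 library, in both gates, and DDB2 did in ALDHneg cells.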

How the results depend on the processing

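Under another tool (DESeq2), 2 other scalings, 2 other filters, summed read-through rows, the replicate block, a fit of all 24 libraries or of the groups compared alone, the ERCC1 and ERCC2 calls in SW620 held, and calls near the threshold moved. The number of the 10 genes called in SUM159 ALDHbr cells under NIF was 0, but 1 by DESeq2, 2 with the replicate block and 1 in the fit of all 24 libraries. In SUM159 ALDHneg cells it was 1, but 2 by DESeq2 and 3 with the block. Asking also for an absolute log2 fold change of at least 1 left 0 in every NIF comparison, in both comparisons of the gates and in both differences between the lines, and 3 and 2 of the 7 between the lines under DMSO. Leaving out 1 library gave 0 to 3 for the SW620 gates.

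Over all genes, the block raised the SUM159 calls from 473 to 1994 in ALDHbr and from 493 to 1970 in ALDHneg cells, and between the gates from 3432 to 5388. DESeq2 called 875 and 884 under NIF, the fit of all 24 libraries 725 and 743, the fit of the groups compared alone 292 in ALDHneg cells, and leaving out 1 library 222 to 322 and 192 to 584. The difference between the gates in the NIF effect was called for 0 genes in SUM159 and 1 in SW620, and by DESeq2 for 2 and 29. Within each line, the block changed no other call among the 10 genes than those given beside the results. It was not fitted across the lines, so the comparisons of SW620 with SUM159 did not take the pairing into account. In SW620 pairing by number was not established, as 4 of 18 same-numbered pairs deviated together at r over 0.1. There the block moved the calls over all genes from 6038 to 5705, from 6286 to 5978 and, between the gates, from 1577 to 1143. The fit of the groups compared alone called 729 genes between the SW620 gates, where leaving out ALDHbr DMSO replicate 2 gave 5487 calls and each other library 712 to 772.

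Values near 0 changed sign. The ERCC1 value in SUM159 ALDHneg cells was 0.0030 with no filter on low counts and 0.00081 with the block. Library-size scaling gave -0.025 for ERCC5, -0.011 for XPA and -0.025 for XPC in SW620 ALDHbr cells, and -0.035 for ERCC5, -0.057 for XPC and -0.026 for DDB2 in SW620 ALDHneg cells. Leaving out 1 library gave log2 fold changes from -0.034 to 0.066 for ERCC1 in SUM159 ALDHbr cells. In SUM159 ALDHneg cells they ran from -0.083 to 0.070 for ERCC1, -0.022 to 0.062 for ERCC2, -0.033 to 0.14 for ERCC4, -0.12 to 0.021 for ERCC6 and -0.054 to 0.0026 for DDB1. In SW620 ALDHbr cells they ran from -0.057 to 0.052 for ERCC5, -0.10 to 0.10 for XPA, -0.051 to 0.063 for XPC and -0.014 to 0.094 for DDB2. In SW620 ALDHneg cells they ran from -0.031 to 0.0075 for ERCC3, -0.072 to 0.11 for ERCC5, -0.11 to 0.036 for XPA, -0.030 to 0.034 for XPC and -0.018 to 0.10 for DDB2. The cause of these moves was not tested. ERCC5, at 31 to 58 counts per library, had the widest 95% interval of the 10 genes under NIF.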
